A study of Mus musculus with 15 samples.

Results

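Classical monocytes are the short-lived blood monocytes that leave the bone marrow and enter inflamed tissue. A set of 9 genes listed as markers of mouse classical monocytes was followed here in whole blood: Ly6c2, Ccr2, Klf4, Fn1, Ms4a4c, Ms4a6c, Clec4a1, Clec4a3 and Mpeg1. Whether the 9 genes tell classical from patrolling monocytes was not tested. They were taken by symbol from the deposited gene table, where all 9 were found among 55536 genes; the rule uses the symbols and no measured value. The blood came from male C57Bl/6 mice aged 10 months. In 8 of them the mother had consumed tributyltin (TBT), an organotin biocide, in drinking water until weaning, at a daily 0.5 mg per kg of body weight, a concentration in the water of 3.07 μM; the mothers of the other 7 had received vehicle, which the labels do not describe further. Each library is a separately labelled animal, litters are not given, and 1 vehicle animal (vehicle 3) is labelled as having a liver tumor. Total RNA was sequenced after a stranded library preparation, and the series as a whole concerns liver tumor risk.

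In the mouse, monocytes mature in the marrow under the cytokine receptor CSF1R and the transcription factor PU.1, and circulate as a classical Ly6C-high population and a patrolling Ly6C-low population that arises largely from it. CCR2 carries classical monocytes out of the marrow along gradients of its ligand CCL2, and the patrolling cells lose CCR2 and Ly6C while they gain CX3CR1 and NR4A1. None of the genes is transcribed by monocytes alone, and in whole blood fewer cells of a type and less RNA per cell cannot be told apart.

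Stretches of the promoter windows of Ly6c2, the gene that names the Ly6C population, and of the neighbouring lectin genes Clec4a1 and Clec4a3 are shown, because these genes went up and down together with others of the 9 across animals. RefSeq (GRCm38.p6) start-site windows of 300 bases, 250 before and 50 after the start, were at hand for 8 of the 9 genes, Fn1 not being among them. The core GAGGAA, the letters typical of sites of PU.1 and its ETS relatives, was searched on both strands, as were the other letters named here. It stood in the first window of 3 of the 8 genes (Ly6c2, Ms4a4c and Clec4a1), beside 28.3% of 32851 windows of the same length. The letters CACCC, typical of KLF-type sites, stood in 4 of 8, beside 57.5% of all windows, and the interferon-stimulated response element, searched as GAAA and a second GAAA with 2 free bases between, in 0 of 8, beside 3.44%. The first line gives the 250 bases before the Ly6c2 start (chr15:75111972-75112221, minus strand) with GAGGAA in capitals. A second GAGGAA begins 26 bases past that start. The next lines give the 250 bases before the Clec4a1 start (chr6:122921598-122921847, plus strand) and 30 bases near the second listed Clec4a3 start (chr6:122952583-122952612, plus strand). Their capitals mark 17 bases that both C-type lectin genes hold, beginning 222 bases before the start in Clec4a1 and 55 before in Clec4a3, and containing TTCCTC, which is GAGGAA read on the other strand.
Ly6c2: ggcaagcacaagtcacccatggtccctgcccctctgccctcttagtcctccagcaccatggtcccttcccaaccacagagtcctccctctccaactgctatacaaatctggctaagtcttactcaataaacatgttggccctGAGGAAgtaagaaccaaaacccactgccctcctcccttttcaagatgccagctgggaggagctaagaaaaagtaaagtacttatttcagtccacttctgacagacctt
Clec4a1: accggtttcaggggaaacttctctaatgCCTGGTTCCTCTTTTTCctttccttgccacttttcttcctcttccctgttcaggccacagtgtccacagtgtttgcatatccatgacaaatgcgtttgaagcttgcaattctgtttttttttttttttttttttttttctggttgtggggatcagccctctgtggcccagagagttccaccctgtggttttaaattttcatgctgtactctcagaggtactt
Clec4a3: taatgcCCTGGTTCCTCTTTTTCattcctt
Apart from a run of T shared by Ccr2 and Clec4a1, no other pair of the 8 genes shared more than 11 bases in these windows. The matches describe letters in the windows and are not binding sites. Their part in the shared ups and downs of these genes was not tested.

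The libraries held between 6031530 and 11985305 counts in genes, and haemoglobin genes took 28.8 to 50.8% of them. TMM scaling factors, which set each library against the others by the bulk of its genes, were 0.404 in TBT 2, 0.528 in TBT 8 and 0.736 in vehicle 6, and 0.807 to 1.58 in the other 12 libraries. TBT 2 and TBT 8 stand apart from the rest, and vehicle 6 has the next lowest factor, so the fold changes of the 9 genes are also given without these 3 libraries. Levels are given as TMM-scaled CPM, gene counts scaled to a common library total, and are compared between genes only per kilobase of exon. Of 13364 genes that passed the filter on low counts, edgeR's quasi-likelihood test with Benjamini-Hochberg adjustment called 0 (0%) between TBT and vehicle at an adjusted p under 0.05, and the smallest adjusted p was 0.207. An unadjusted p under 0.05 was found for 846 genes (6.33%), of which 611 (4.57%) were higher and 235 (1.76%) lower in TBT. DESeq2 called 19 genes and limma-voom with quality weights 22, none of them among the 9.

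All 9 genes passed the filter, and none differed between TBT and vehicle beyond the spread between animals. The log2 fold change (TBT minus vehicle) was above 0 for 9 of 9, with a median of 0.26, beside 59.4% of all tested genes and a median of 0.05 over all of them. An unadjusted p under 0.05 was reached by 0 of the 9, beside 6.33% of all genes, and the smallest was 0.0525, for Ly6c2. The CPM of the 2 groups overlapped for every one of the 9 genes, while they did not overlap for 0.112% of all genes. Because the 9 genes largely share their ups and downs across animals, as shown further on, their common sign is not 9 separate observations.

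**Figure D1:**
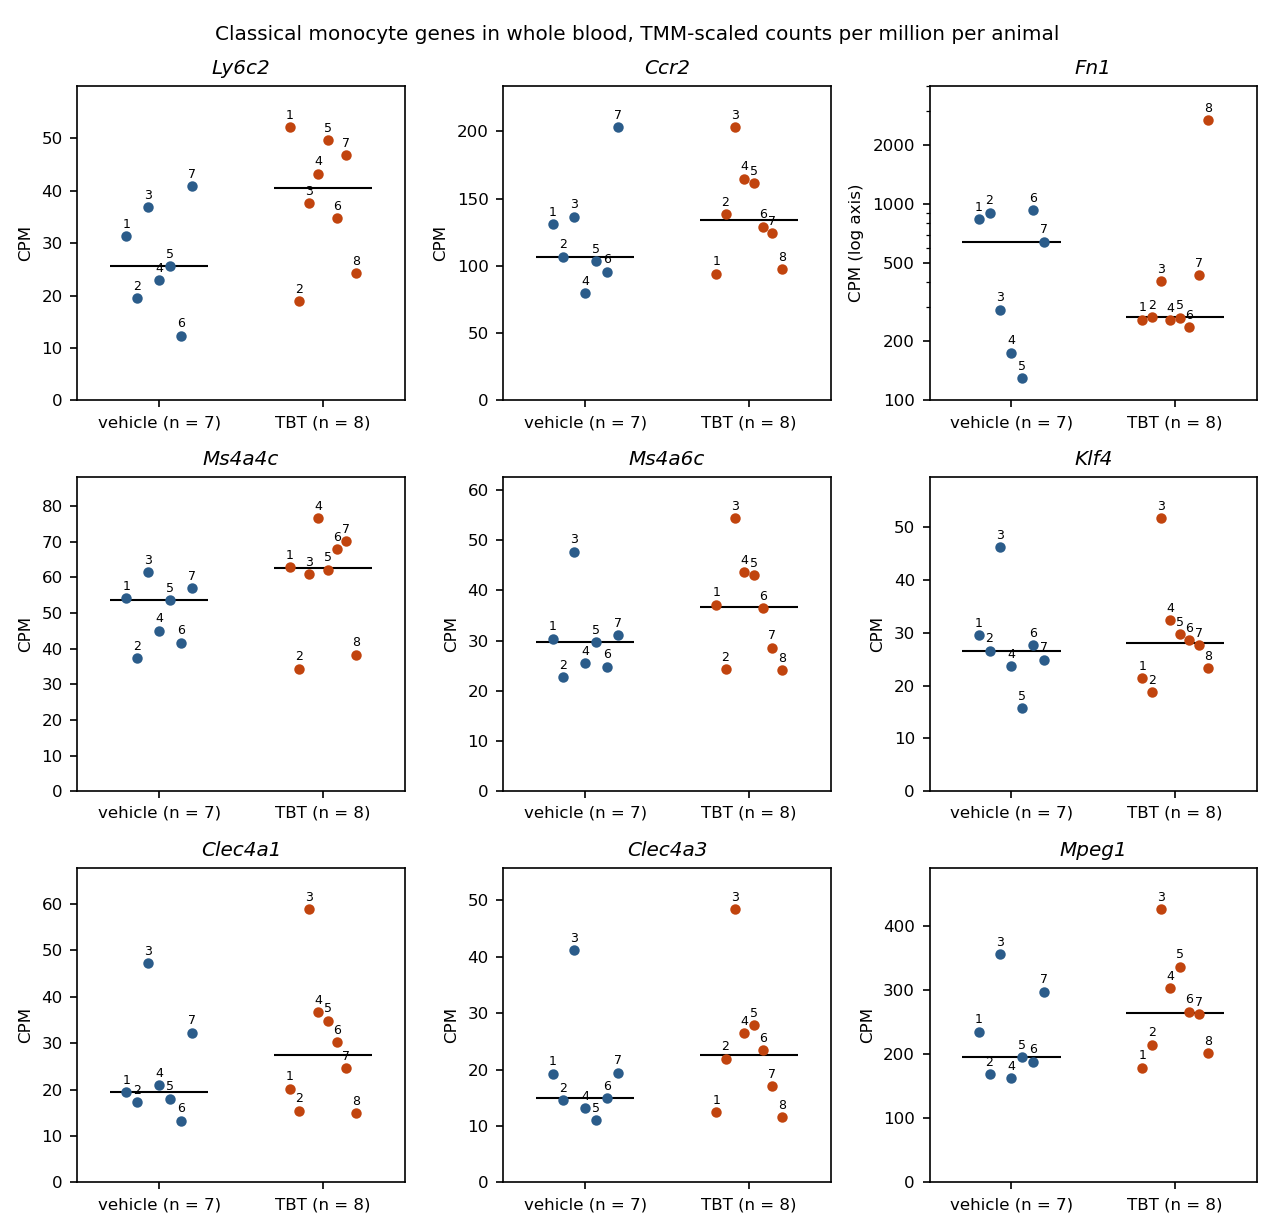
TMM-scaled CPM of the 9 genes, 1 point per animal with its replicate number, in 7 vehicle and 8 TBT animals; horizontal lines are group medians, and the Fn1 axis is logarithmic. The groups overlap in all 9 panels, TBT 3 and vehicle 3 stand at the top of most panels, and TBT 8 is far above the rest for Fn1 at 2674 CPM.

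Ly6c2 encodes the GPI-anchored LY6 protein that antibodies to Ly6C recognise on classical monocytes (chr15:75108158-75111970, minus strand, GRCm38). It ranged from 19.0 to 52.1 CPM with a median of 40.4 in the 8 TBT animals, and from 12.3 to 40.8 CPM with a median of 25.5 in the 7 vehicle animals. In TBT, 6 animals lay above the vehicle median and TBT 2 and TBT 8 were the low ones; vehicle 7 and vehicle 3 led the vehicle animals. The means were 38.4 ± 11.9 (SD, n = 8) and 27.1 ± 9.97 CPM (SD, n = 7). The fitted log2 difference was 0.52 ± 0.25 (SE) with a 95% interval from -0.01 to 1.04 (edgeR adjusted p = 0.788). This was the widest distance from 0 among the 9 genes, and it did not pass the test. Ly6c1, the near-identical neighbour whose reads could be divided with those of Ly6c2, held little of the signal: the ratio of Ly6c2 to Ly6c1 counts was between 11.1 and 185 in the 15 libraries.

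Ccr2 encodes the chemokine receptor that classical monocytes need to leave the marrow (chr9:124101950-124113557, plus strand). In TBT animals it stood between 94.2 and 203 CPM with a median of 134, and in vehicle animals between 79.5 and 203 CPM with a median of 107. The highest animal of each group, TBT 3 and vehicle 7, reached almost the same level. The log2 fold change was 0.19 ± 0.20 (SE) with a 95% interval from -0.24 to 0.61 (edgeR adjusted p = 0.964), and it was 0.09 without TBT 3 and 0.35 without vehicle 7. TBT 1 had the highest Ly6c2 of all animals and the lowest Ccr2 of its group.

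Klf4 encodes a zinc-finger transcription factor that promotes monocyte differentiation (chr4:55527143-55532466, minus strand). Its level ran from 18.7 to 51.6 CPM (median 28.1) in TBT and from 15.7 to 46.1 CPM (median 26.6) in vehicle. The medians lay close together, and the top value of each group came from replicate 3. With a log2 fold change of 0.08 ± 0.22 (SE) and a 95% interval from -0.38 to 0.54 (edgeR adjusted p = 0.988), Klf4 was the member nearest to 0. Without TBT 3 the value was -0.09, without vehicle 5 it was -0.03, and without vehicle 3 it was 0.23.

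Ms4a4c and Ms4a6c belong to a family of membrane proteins that cross the membrane 4 times, clustered on chromosome 19 (chr19:11404770-11427246 and chr19:11469366-11482192, plus strand). Ms4a4c ranged from 34.5 to 76.7 CPM with a median of 62.5 in TBT and from 37.4 to 61.6 CPM with a median of 53.6 in vehicle. In TBT, 5 animals were above the highest vehicle animal, and TBT 2 and TBT 8 were near the bottom. Its log2 fold change was 0.25 ± 0.16 (SE), with a 95% interval from -0.09 to 0.59 (edgeR adjusted p = 0.872). Ms4a6c ranged from 24.1 to 54.4 CPM with a median of 36.7 in TBT and from 22.8 to 47.7 CPM with a median of 29.6 in vehicle. Vehicle 3 lay well above the other vehicle animals, whose next value was 31.0 CPM. The log2 fold change of Ms4a6c was 0.27 ± 0.18 (SE), with a 95% interval from -0.12 to 0.66 (edgeR adjusted p = 0.883), and it was 0.17 without TBT 3 and 0.40 without vehicle 3. Ms4a6c shares 1088 exonic bases with BE692007, a non-coding transcript on the opposite strand with more counts than Ms4a6c in every library (count ratio of Ms4a6c to BE692007 0.27 to 0.590). Whether reads were counted by strand is not stated, so reads from this shared stretch may not be told apart and the level of Ms4a6c is uncertain. BE692007 itself had a log2 fold change of 0.08 (edgeR adjusted p = 0.982).

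Clec4a1 and Clec4a3 encode C-type lectin receptors of the DCIR group that myeloid cells carry on their surface (chr6:122921848-122934619 and chr6:122952515-122969875, plus strand). Clec4a1 ran from 14.9 to 58.9 CPM (median 27.4) in TBT and from 13.3 to 47.3 CPM (median 19.5) in vehicle. Clec4a3 ran from 11.6 to 48.5 CPM (median 22.7) in TBT and from 11 to 41.1 CPM (median 14.96) in vehicle. For both lectins TBT 3 was the highest animal and vehicle 3 the second highest, and TBT 8 was the lowest TBT animal. The log2 fold change was 0.30 ± 0.31 (SE, 95% interval -0.36 to 0.97) for Clec4a1 and 0.31 ± 0.32 (SE, 95% interval -0.37 to 0.99) for Clec4a3, with an edgeR adjusted p of 0.960 for each. These values rested heavily on the replicate 3 animals: without TBT 3 they were 0.08 and 0.07, and without vehicle 3 they were 0.54 and 0.61. With both of these animals left out they were 0.32 and 0.37.

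Mpeg1 encodes perforin-2, a pore-forming protein of phagocytes that acts on engulfed bacteria (chr19:12460779-12465283, plus strand). It ranged from 179 to 427 CPM with a median of 264 in TBT and from 163 to 356 CPM with a median of 195 in vehicle. Above the vehicle median lay 7 of the 8 TBT animals, all but TBT 1. The log2 fold change was 0.26 ± 0.22 (SE), with a 95% interval from -0.21 to 0.72 (edgeR adjusted p = 0.931), and it was 0.14 without TBT 3 and 0.38 without vehicle 3.

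Fn1 encodes fibronectin, an adhesive matrix glycoprotein that monocytes and macrophages make, that hepatocytes secrete into plasma and that platelets store (chr1:71585520-71653200, minus strand). The CPM in TBT 1 to TBT 8 were 258, 266, 404, 256, 264, 236, 435 and 2674, in that order. In vehicle 1 to vehicle 7 they were 836, 904, 290, 175, 129, 931 and 645. TBT 8 stood far above every other animal, 4 vehicle animals stood between 645 and 931 CPM, and the other 10 animals were at 435 CPM or less. The group means, 599 ± 842 (SD, n = 8) and 559 ± 353 CPM (SD, n = 7), were close together, yet the TBT median of 265 lay below the vehicle median of 645. For Fn1 the log2 fold change was 0.10 ± 0.61 (SE), with a 95% interval from -1.20 to 1.40 (edgeR adjusted p = 0.9955). Without TBT 8 it was -0.90, and without TBT 2, TBT 8 and vehicle 6 it was -0.69; it was also below 0 without vehicle 3 (-0.036), vehicle 4 (-0.056) or vehicle 5 (-0.043). The sign for Fn1 therefore changed with single libraries, TBT 8 most of all.

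**Figure D2:**
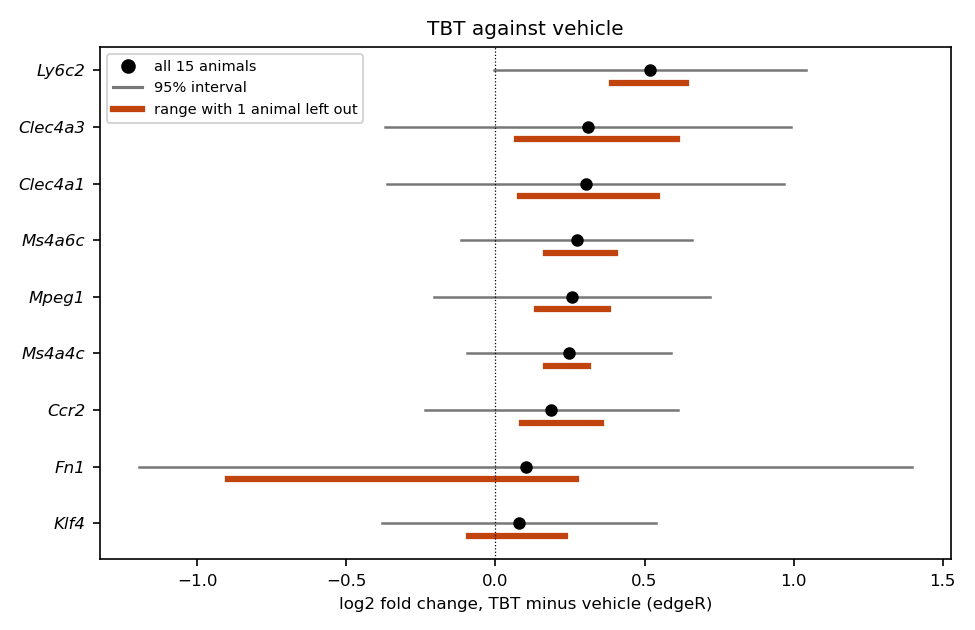
Log2 fold change (TBT minus vehicle) of each gene from edgeR over all 15 animals (point) with its 95% interval (grey line), and the range of the value when each animal is left out in turn (orange bar). All intervals include 0, Ly6c2 lies farthest from 0 at 0.52, and Fn1 runs from -0.90 to 0.27 as single animals are left out.

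Without TBT 2, TBT 8 and vehicle 6, the log2 fold change was 0.57 for Ly6c2, 0.20 for Ccr2, 0.37 for Ms4a4c, 0.36 for Ms4a6c, 0.19 for Klf4, 0.39 for Clec4a1, 0.37 for Clec4a3, 0.32 for Mpeg1 and -0.69 for Fn1. None of the 9 genes passed the test there either, where edgeR called 7 genes in all. The smallest adjusted p of any member under any alternative was 0.0810, for Ly6c2 with limma-voom.

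Per kilobase of exon and in vehicle animals, Mpeg1 was highest at 52.9 ± 16.8 CPM per kb (SD, n = 7), followed by Fn1 at 47.8 ± 30.2 and Ms4a4c at 28.6 ± 5.02. Ccr2 stood at 18.1 ± 6.03, Clec4a1 at 15.4 ± 7.57, Ms4a6c at 14.8 ± 4.05 and Clec4a3 at 14.4 ± 7.69 CPM per kb. Ly6c2 (9.87 ± 3.64) and Klf4 (9.09 ± 3.03) were lowest. The vehicle ranges of all neighbours in this order overlapped. Within animals, Ms4a4c was above Ccr2 in 7 of 7 vehicle animals and 14 of 15 animals in all, while the other neighbours kept their order in 6 to 11 of the 15 animals. Fn1 also varied most from animal to animal: its highest CPM was 20.7 times its lowest, and 7.20 times without TBT 8. For the other genes this ratio lay between 2.23, for Ms4a4c, and 4.42, for Clec4a1.

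The animals differed in the same direction for most of these genes. Leaving Fn1 aside, TBT 3 was among the 3 highest animals for 6 of 8 genes, TBT 4 for 5 and vehicle 3 for 5. At the other end, TBT 2 was among the 3 lowest for 5 genes, and TBT 1, TBT 8 and vehicle 2 for 4 each. Fn1 gave another order: TBT 8, vehicle 6 and vehicle 2, all low for the other genes, were its 3 highest animals.

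**Figure D3:**
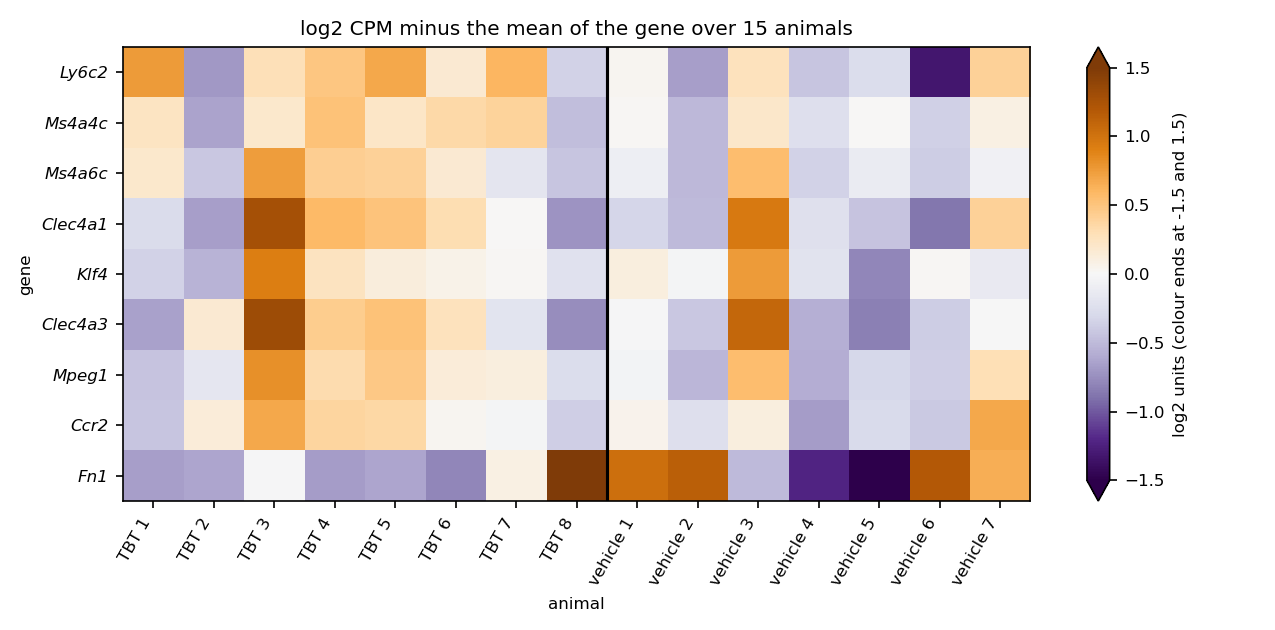
Log2 CPM of each gene minus its mean over the 15 animals (colour, log2 units; orange above and purple below the mean), with TBT animals left and vehicle animals right of the black line. TBT 3 and vehicle 3 are above the mean for the 8 genes other than Fn1, and TBT 8, with Fn1 at 2674 CPM, is below it for those 8.

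Spearman correlations of log2 CPM were computed for all 36 pairs of the 9 genes over the 15 animals, with permutation p-values adjusted over the 36 pairs by Benjamini-Hochberg. An adjusted p under 0.05 was found for 19 pairs, all of them among the 28 pairs without Fn1, and for 7 pairs when the 2 animals farthest from the median of the first gene were left out. Within those 28 pairs rho ran from 0.30 to 0.89 with a median of 0.71, and it was above 0 in 28. The order of animals was largely shared inside each group too. The median rho over the 28 pairs was 0.71 within TBT, with 27 pairs above 0, and 0.75 within vehicle, with 28 above 0. Within TBT, however, Ly6c2 and Ms4a4c followed Ccr2, Clec4a3 and Mpeg1 little. There rho was -0.14, 0.10 and 0.07 for Ly6c2, and 0.02, 0.12 and 0.19 for Ms4a4c. Their other pairs without Fn1 had rho from 0.21 to 0.55 within TBT. The 8 pairs with Fn1 had rho from -0.40 to 0.11 with a median of -0.16, and the smallest permutation p among them, adjusted, was 0.195. TMM scaling enters every value of a library alike, and its part in these correlations was not tested. With the size factors of the RLE method 18 pairs passed. How often pairs of other tested genes pass was not computed, so these counts do not set the 9 genes apart.

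The closest pair was Ms4a6c and Clec4a1, with rho = 0.89 (permutation p = 5e-05, adjusted 0.00072) and Pearson's r = 0.90 (permutation p = 2e-05, adjusted 0.00024). Without TBT 3 and vehicle 3, the animals farthest from the median of Ms4a6c, r was 0.82. Clec4a3 and Mpeg1 had rho = 0.87 (permutation p = 6e-05, adjusted 0.00072) and r = 0.90 (permutation p = 1e-05, the smallest that 100000 resamples can give, adjusted 0.00018), and r was 0.82 without TBT 3 and vehicle 3. For Ccr2 and Mpeg1 rho was 0.87 (permutation p = 5e-05, adjusted 0.00072) and r was 0.87 (permutation p = 6e-05, adjusted 0.00054), with r = 0.80 without TBT 3 and vehicle 4. Mpeg1 was thus close to both Ccr2 and Clec4a3.

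Ly6c2 and Ms4a4c had rho = 0.86 (permutation p = 0.0001, adjusted 0.0009) and r = 0.84 (permutation p = 0.00011, adjusted 0.00066). Without TBT 2 and vehicle 6 r was 0.85, and rho was 0.55 within TBT and 0.93 within vehicle. Ly6c2 and Ccr2, the pair most used to define classical monocytes, had rho = 0.37 (permutation p = 0.178, adjusted 0.222) and r = 0.50 (permutation p = 0.0600, adjusted 0.0939). Without TBT 2 and vehicle 6 their r was 0.52. Their rho was -0.14 within TBT and 0.82 within vehicle, and the difference between these values was not tested. The neighbouring lectin genes Clec4a1 and Clec4a3, whose windows share the 17 capital bases shown above, had rho = 0.75 (permutation p = 0.00169, adjusted 0.00608) and r = 0.86 (permutation p = 9e-05, adjusted 0.000648), with r = 0.69 without TBT 3 and vehicle 3, where rho was 0.62 and its permutation p, adjusted, was 0.0647.

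**Figure D4:**
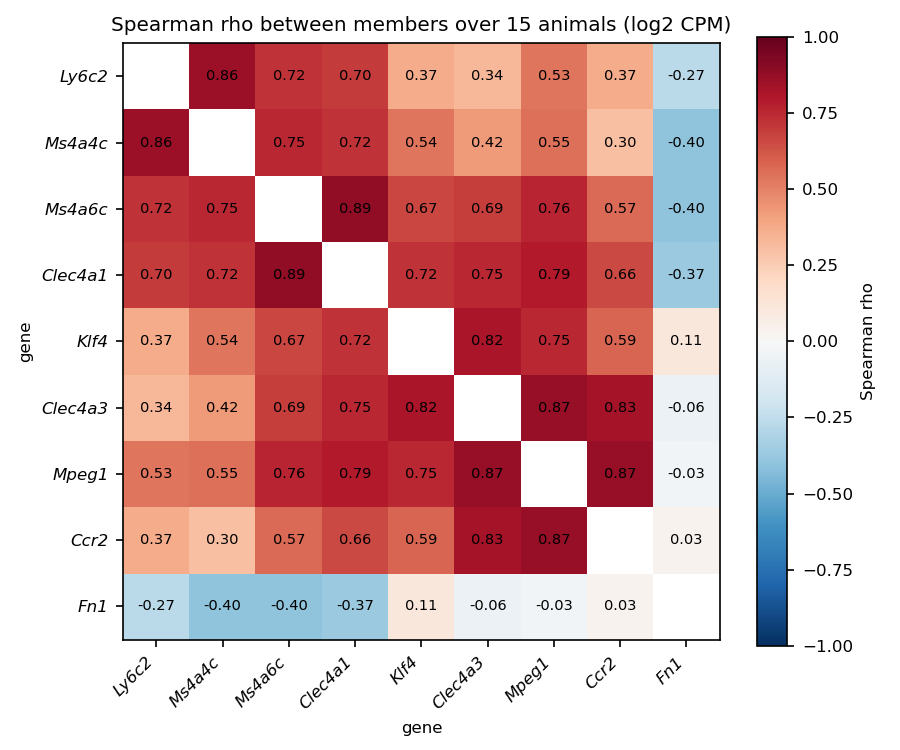
Spearman's rho between the log2 CPM of each pair of the 9 genes over 15 animals (colour and printed value). The 28 pairs among the 8 genes other than Fn1 run from 0.30 to 0.89, and the Fn1 row and column run from -0.40 to 0.11.

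Of 11139 protein-coding genes outside the 9, those most like the mean of the 9 genes across the 15 animals were Adgre4, Cybb, Glud1 and Ldlrad3, each with a Spearman's rho of 0.95, and Slc8b1 with 0.946. Adgre4 encodes an adhesion receptor of monocytes and macrophages, Cybb the catalytic subunit of the phagocyte NADPH oxidase and Glud1 glutamate dehydrogenase. Adgre4 is also counted below among the patrolling monocyte genes, and Cybb among the genes shared by monocytes and macrophages. Adgre4 stood at 93.0 ± 46.2 CPM (SD, n = 8) in TBT and 67.4 ± 39.5 CPM (SD, n = 7) in vehicle, 0.47 apart on the log2 scale (edgeR adjusted p = 0.894); the value was 0.23 without TBT 3 and 0.79 without vehicle 3. Cybb stood at 279 ± 85.4 CPM (SD, n = 8) and 224 ± 76.8 CPM (SD, n = 7), a log2 fold change of 0.32 (edgeR adjusted p = 0.885), or 0.17 without TBT 3. The values of Glud1 (0.13), Ldlrad3 (0.13) and Slc8b1 (0.26) were on the same side of 0, and without TBT 3 they were at 0.048, -0.027 and 0.13.

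Other genes of monocytes gave values of similar size. Beside the counts for each list, 59.4% of all tested genes were above 0, and 4.57% were higher at an unadjusted p under 0.05. Genes of a list that vary together across animals are not separate observations. Some lists share genes: Mmp8 here is also a listed neutrophil gene, and Lyz1 a listed tissue macrophage gene. Of 19 tested further genes listed for classical monocytes, 18 had a log2 fold change above 0, with a median of 0.18. An unadjusted p under 0.05 in that direction was found for 2. These 2 were Vcan, which encodes the proteoglycan versican, at 27.6 ± 17.4 CPM (SD, n = 8) against 14.2 ± 7.08 (SD, n = 7), and Chil3, which encodes a secreted chitinase-like protein, at 26.2 ± 11.03 against 14.35 ± 6.96. Their log2 fold changes were 0.98 and 0.88, with an edgeR adjusted p of 0.725 for both, so neither passed in the main fit. With the replicate number as a block, Chil3 passed (0.94, edgeR adjusted p = 0.0499) and Vcan did not (edgeR adjusted p = 0.467). Without TBT 3 Vcan was at 0.65. Plac8 stood at 0.44 (edgeR adjusted p = 0.872), with 0.31 without TBT 3 and 0.71 without vehicle 3. Of 19 tested genes of patrolling monocytes, 19 were above 0 with a median of 0.16 and none had an unadjusted p under 0.05. Among them Cx3cr1, the fractalkine receptor, was at 0.13, and Nr4a1, the nuclear receptor on which patrolling monocytes depend, at 0.11; without TBT 3 they were at -0.06 and -0.15. The summed CPM of the patrolling genes was highest in TBT 3 (2483) and vehicle 3 (2120), which also led most of the 9 genes.

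Of 20 genes shared by monocytes and macrophages 18 were above 0 (median 0.16). Csf1r, the receptor for the growth factor CSF1, was at 0.25, and Itgam, the CD11b integrin chain, at 0.31. Csf1r was at 0.038 without TBT 3 and 0.50 without vehicle 3, and Itgam was at 0.14 without TBT 8. Lyz2, lysozyme, was at 0.10 and Adgre1, which encodes F4/80, at 0.20; without TBT 8 they were at -0.12 and -0.18. Among 16 transcription factors of monocytes 9 were above 0 and 7 below, with a median of 0.04. Spi1, which encodes PU.1, was at 0.15, Runx1 at 0.17 and Bach1 at 0.18. Without TBT 3 Spi1 was at 0.030 and Bach1 at 0.12, and without TBT 2 Runx1 was at 0.11. Below 0 were Gfi1 at -0.37, Egr1 and Zbtb46 at -0.21, Klf2 at -0.17, Cebpa at -0.08, Irf8 at -0.05 and Irf4 at -0.04. Of 14 ligands and receptors around CCR2, 6 were tested and 4 of these were above 0; Csf1, the ligand of CSF1R, was at -0.25, with a range of -0.39 to -0.15 as single animals were left out. The CCR2 ligands Ccl2, Ccl7, Ccl8 and Ccl12 did not pass the filter in blood. Of 10 fibronectin receptor genes 8 were above 0, with the integrin chains Itgav at 0.21 and Itgb7 at -0.25. The summed CPM of these receptor genes had a lower median in TBT (2476) than in vehicle (3413), and was highest in TBT 2 (7286) and TBT 8 (7088). No gene of these lists passed the edgeR test after adjustment, and none of the lists in this paragraph held a gene with an unadjusted p under 0.05.

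Relatives of the 9 genes were measured too. Of 9 tested Ms4a genes 8 were above 0 (median 0.25), among them Ms4a6d at 0.63 (0.34 without TBT 3 and 1.07 without vehicle 3) and Ms4a6b at 0.31 (0.20 without TBT 4), and so were 6 of 6 tested Clec4 genes (median 0.25). Of 7 tested Ly6 genes 4 were above 0, with a median of 0.05 that equals that of all genes. These counts include the members, and no test of the families was run. Ly6a, which encodes Sca-1, stood at 21.7 ± 4.07 CPM (SD, n = 8) against 16.3 ± 5.72 (SD, n = 7), 0.41 higher on the log2 scale (edgeR adjusted p = 0.743). Genes of the interferon response had a larger median, 0.51, with 19 of 19 above 0 and 11 at an unadjusted p under 0.05. They included Gbp7, a guanylate-binding protein gene, at 0.53 (edgeR adjusted p = 0.320) and Xaf1 at 0.62 (edgeR adjusted p = 0.542). Over all tested genes 59.4% were above 0 and 4.57% were higher at an unadjusted p under 0.05. Here too, genes that vary together are not separate observations.

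Markers of other blood cells were measured in the same libraries. Of 11 tested neutrophil genes 9 were above 0 (median 0.16), of 10 B cell genes 1 (median -0.26), of 13 T and NK cell genes 8 (median 0.02) and of 12 dendritic cell genes 7 (median 0.12). An unadjusted p under 0.05 was found for 3 neutrophil genes (Ltf at 3.47, Ngp at 3.23 and Wfdc21 at 0.79), for the B cell gene Fcer2a at -0.42 and for the dendritic cell gene Siglech at 0.77, and none passed after adjustment by edgeR. Ngp had 1829 of its 2201 counts in 1 library, and without TBT 1 it was at 0.26. Ltf likewise had 695 of its 865 counts in 1 library, and DESeq2 put it at 0.88. Of 12 platelet genes 9 were above 0 (median 0.06), and of 10 erythroid genes 9 (median 0.29). The group medians of the summed CPM lay the other way. They were 3687 in TBT and 7332 in vehicle for platelet genes, and 285000 and 384900 for erythroid genes. TBT 2 and TBT 8 had the highest sums, 16500 and 16410 CPM for platelet genes and 1322000 and 890400 CPM for erythroid genes. The summed neutrophil genes lay between 371 and 793 CPM in TBT and between 420 and 1074 CPM in vehicle, so they overlapped as the 9 genes did. Their part in the values of the 9 genes was not tested.

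Fibronectin RNA can come from several kinds of cell, so genes of hepatocytes and platelets were set beside Fn1. The sum of 12 platelet genes was highest in TBT 2 (16500 CPM), where Fn1 stood at 266 CPM, and nearly as high in TBT 8 (16410 CPM), where it stood at 2674. The sum of 15 hepatocyte genes was highest in vehicle 4 (1152 CPM), whose Fn1 of 175 CPM was the second lowest of all animals, and 561 CPM in TBT 8. All 11 tested hepatocyte genes had a log2 fold change below 0 (median -0.43), and none had an unadjusted p under 0.05. Their summed level was 3.34 to 754 CPM in TBT and 7.40 to 1152 CPM in vehicle. Their part in the Fn1 values was not tested.

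The genes most like Fn1 across the 15 animals were Msr1 (Spearman's rho 0.90), Lyz1 (0.89), C1qb (0.88), Efnb2 (0.86), Lpl (0.86) and Prg4 (0.85), several of them known from tissue macrophages. A list of 20 tissue macrophage genes, drawn up after these values were seen, had 15 tested genes, 10 of them above 0 (median 0.21), and no gene of the list was at 0 in every library. The list holds 8 of the 10 genes most like Fn1, so that its sum follows Fn1 across animals comes from the choice of its genes and is no separate finding. Its summed level was 32.3 to 1211 CPM in TBT (median 52.2) and 28.1 to 346 CPM in vehicle (median 131). TBT 8 had 1211 CPM, vehicle 2 had 346, vehicle 6 had 311 and vehicle 1 had 278. Prg4, which encodes the lubricant protein lubricin, stood at 414 CPM in TBT 8, 122 in vehicle 6, 111 in vehicle 2 and 92.8 in vehicle 1, and between 2.22 and 44.4 CPM in the other 11 animals. Gata6, the transcription factor of peritoneal macrophages, had 60 counts in TBT 8, 35 in vehicle 1, 31 in vehicle 2, 30 in vehicle 6 and at most 12 in any other library. Their part in the Fn1 values was not tested.

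**Figure D5:**
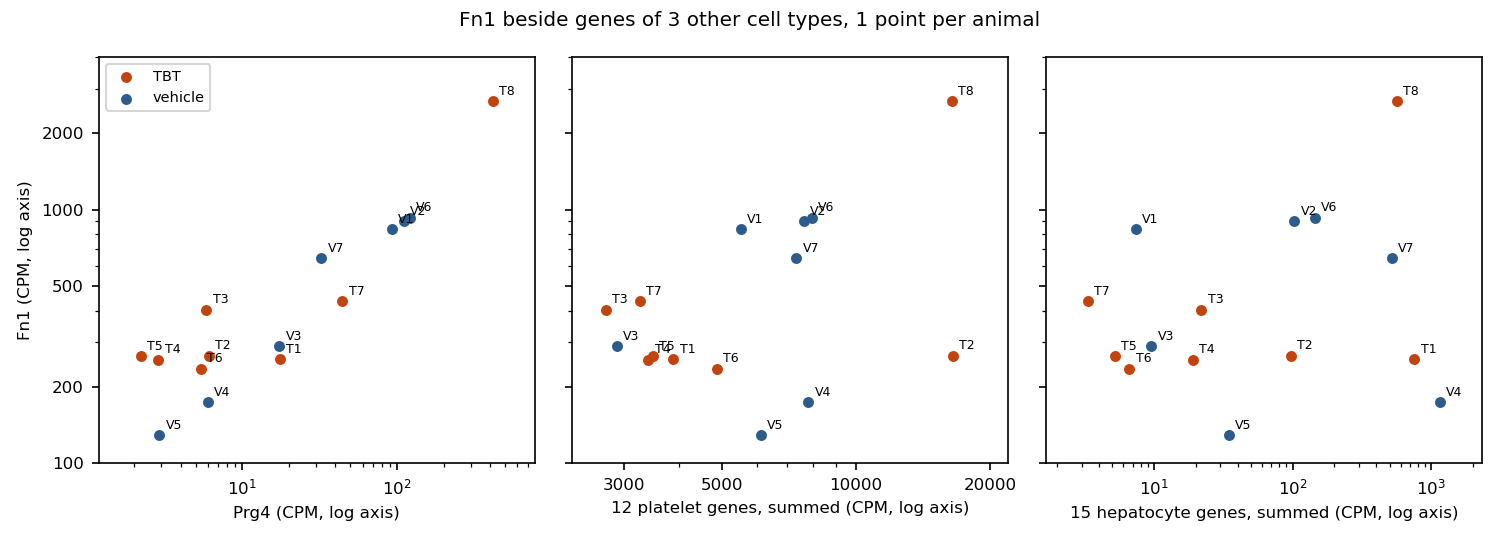
Fn1 (CPM, log axis) against Prg4, the sum of 12 platelet genes and the sum of 15 hepatocyte genes (CPM, log axes), 1 point per animal (T for TBT, V for vehicle, with the replicate number). Prg4 was picked because it is among the genes most like Fn1, so its panel shows that choice and is not to be set against the other panels; TBT 2 has 16500 CPM of platelet genes with Fn1 at 266 CPM, and vehicle 4 has the most hepatocyte RNA with Fn1 at 175 CPM.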

How the data were processed

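Whole-blood RNA from 8 TBT and 7 vehicle mice was analysed from the gene-level read counts that the authors deposited, made with Trim Galore, HISAT2 and featureCounts on mm10, per the submitters' processing notes. No source used here gives versions, the strand setting or the gene annotation. All 55536 gene identifiers matched GENCODE M21, which supplied coordinates and exon lengths. Genes were filtered with filterByExpr and tested with edgeR 4.0.16 in R 4.3.3 (TMM, quasi-likelihood, TBT against vehicle, two-sided, residual df 13, Benjamini-Hochberg over 13364 genes). P-values measure the spread between animals. TBT was given to the mothers and litters are not given, so the spread between treated mothers could not be measured. The number of independent animals may therefore be lower than the number of libraries. Log2 CPM for correlations used a prior count of 2; permutation tests (scipy 1.17.1, two-sided) drew 100000 resamples. The 9 genes and the lists were chosen with earlier results of these data known. The text names the 9 genes, of each list the tested genes with the smallest p, a fixed set of markers and the genes most like the mean of the 9; some of these, several with a value near 0 that changed sign, were left out for length after their values were seen. Genes most like Fn1 were added after values were seen. Alternatives were other scalings, no filter, left-out animals, a replicate block, DESeq2 1.42.0 and limma 3.58.1. In counts simulated from these libraries, 54 of 100 genes changed by 1 on the log2 scale and 14 of 100 changed by 0.5 were called, with 4 false calls among 13045 genes.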

Additional observations from a re-analysis of the deposited data

Results flagged for a closer look

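In 5 of 18 groups looked at (9 genes in 2 groups of animals), 1 animal lay farther from its nearest neighbour, relative to the range of its group, than Dixon's test allows at the 95% level; chance alone flags about 1 group in 20, and the genes are correlated, so these are not 5 separate events. Fn1 was 2674 CPM in TBT 8, where the next TBT animal had 435 CPM. Klf4 was 51.6 CPM in TBT 3 (next 32.4) and Clec4a3 was 48.5 CPM in the same animal (next 27.9). In vehicle 3, which has the liver tumor label, Ms4a6c was 47.7 CPM (next 31.0) and Clec4a3 was 41.1 CPM (next 19.4). TBT 3 carries no such label.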

How the results depend on the processing

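None of the 9 genes was called under any alternative, and 7 to 9 of them stayed above 0 in every fit, with 7 when vehicle 5 was left out; their median was 0.14 to 0.43. The count of genes called among all genes was 0 in the edgeR fit, 2 without the filter on low counts, 1 with the replicate block, 19 with DESeq2, 22 with limma-voom and 7 without TBT 2, TBT 8 and vehicle 6, and 0 whenever 1 animal was left out. The pairs of genes with an adjusted permutation p under 0.05 numbered 19, and 7 without the 2 animals farthest from the median of each pair's first gene, where fewer animals were tested. The log2 fold change of Fn1 was -0.15 on library totals without TMM, -0.57 with the replicate block, -0.66 with limma-voom and -0.69 without TBT 2, TBT 8 and vehicle 6; leaving out 1 animal at a time gave -0.90 to 0.27. Lyz2 was -0.11 with the block, -0.13 with limma-voom and -0.17 without the 3 libraries (1 animal left out, -0.12 to 0.18), and Adgre1 was -0.112, -0.039 and -0.090 (-0.18 to 0.28). Leaving out 1 animal gave -0.089 to 0.23 for Klf4, -0.065 to 0.32 for Cx3cr1, -0.15 to 0.37 for Nr4a1 and -0.027 to 0.33 for Ldlrad3, each lowest without TBT 3; the cause was not tested. Outside the 9, Chil3 passed with the block (0.94, adjusted p = 0.0499 in edgeR), Gbp7 with DESeq2 and limma-voom, and Xaf1 with limma-voom. Whether the replicate numbers pair the animals is not given. The correlation of same-numbered animals' deviations ran from -0.235 to 0.506, and only number 3 had its best match in its own number. These values cannot decide whether the numbers mark something shared. Library totals without TMM moved the median of all genes to 0.14, with 75.8% of genes above 0. The median 95% half-width was 0.41 on the log2 scale, so differences of the size seen in the 9 genes, 0.08 to 0.52, were mostly not detectable with these animals.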
